A study of Saccharomyces cerevisiae with 9 samples.

Results

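The 8 genes described here make, import or control the supply of inositol and of the phospholipids of budding yeast, Saccharomyces cerevisiae. They were chosen by name, as the rows of the count table for INO1, OPI3, CHO1, CHO2, ITR1, OPI1, INO2 and INO4, and are 8 of 5928 genes in that table. INO1 encodes inositol-3-phosphate synthase, which makes inositol phosphate from glucose-6-phosphate. CHO1 encodes phosphatidylserine synthase, and CHO2 and OPI3 encode the methyltransferases that turn phosphatidylethanolamine into phosphatidylcholine. ITR1 encodes the major inositol transporter of the plasma membrane. INO2 and INO4 encode the partners of an activating transcription factor, and OPI1 encodes the repressor that acts against it.

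Ino2 and Ino4 bind as a pair to an element, known as UASINO, in the promoters of phospholipid synthesis genes and activate them when inositol is scarce. Opi1 is held at the endoplasmic reticulum by phosphatidic acid and by the membrane protein Scs2. When inositol is supplied, phosphatidic acid is used up, Opi1 moves into the nucleus and the genes are repressed, INO1 most of all. INO1 is also the textbook target of the repressor Ume6, which recruits the Rpd3 and Sin3 histone deacetylase to an element known as URS1.

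RNA selected for poly(A) was sequenced from 9 cultures of the W303 strain, mating type alpha, with 3 biological replicates in each of 3 groups. All strains carried ura3-1, trp1-delta, ade2-1 and his3-11,15, and a leu2 allele. The labels give wild type and Pcf11-13 the same leu2 allele number, and that of Pcf11-DNL is the same but for a missing digit. Whether this is a typing error or a different allele cannot be told from the labels. In every strain, the controls included, TRP1 replaced the chromosomal PCF11 gene, whose product helps to cleave pre-mRNA at its end and to terminate transcription. PCF11 came from the plasmid pRS325-LEU2, which held V5-PCF11-MYC in the wild type group, pcf11-13 with no tag named in Pcf11-13, and V5-pcf11-deltaN-linkMYC in Pcf11-DNL. Cultures grew at 30 °C in YPAD, a rich glucose medium made with yeast extract, to an optical density between 1.0 and 1.2, and all 9 carry the treatment label glucose. The comparisons ask how transcripts differ between each allele and the normal gene, and between the alleles.

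The promoters of 4 of the genes are shown as examples. Like those of OPI3 and CHO1, which are not printed, these promoters hold a motif searched for and belong to genes that changed in Pcf11-13. Each is the window from 300 to 101 bases before the start codon, read 5′ to 3′ on the gene's strand from the R64 reference genome. Capitals mark CATGTG, the core of the Ino2-Ino4 element, and AGCCGCC, the core of URS1, on either strand. INO1 (YJL153C) is on the minus strand, window chrX:136034-136233. CHO2 (YGR157W) is on the plus strand, window chrVII:802140-802339. ITR1 (YDR497C) and INO2 (YDR123C) are on the minus strand, with windows chrIV:1445568-1445767 and chrIV:699569-699768.
INO1: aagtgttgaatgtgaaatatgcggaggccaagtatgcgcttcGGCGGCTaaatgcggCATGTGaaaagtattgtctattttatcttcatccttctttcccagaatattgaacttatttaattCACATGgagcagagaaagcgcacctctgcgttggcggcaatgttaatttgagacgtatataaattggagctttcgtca
CHO2: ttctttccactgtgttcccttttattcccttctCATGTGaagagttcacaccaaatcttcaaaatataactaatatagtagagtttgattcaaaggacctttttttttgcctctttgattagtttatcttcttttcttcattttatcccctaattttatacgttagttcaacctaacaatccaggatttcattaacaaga
ITR1: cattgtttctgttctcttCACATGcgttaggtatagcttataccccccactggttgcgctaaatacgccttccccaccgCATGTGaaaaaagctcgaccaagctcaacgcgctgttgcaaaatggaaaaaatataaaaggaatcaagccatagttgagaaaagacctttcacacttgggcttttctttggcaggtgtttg
INO2: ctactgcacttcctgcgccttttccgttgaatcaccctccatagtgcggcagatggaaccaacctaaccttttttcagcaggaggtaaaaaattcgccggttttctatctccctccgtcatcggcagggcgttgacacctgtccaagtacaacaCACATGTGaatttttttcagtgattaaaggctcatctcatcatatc

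Windows of 7 of the genes are described, those of INO1, OPI3, CHO1, CHO2, ITR1, INO2 and INO4. The Ino2-Ino4 core was found in all 7, and in 344 of all 6001 promoter windows of the same length (5.73%). INO1, OPI3 and ITR1 held 2 matches each, on opposite strands, and CHO1, CHO2 and INO4 held 1. The 2 matches in INO2, at 146 and 144 bases before the start codon, overlap, because that stretch reads the same on both strands. The longer form CATGTGA was present in 6 of the 7 windows, without OPI3, against 1.8% of all windows. The URS1 core lay in the INO1 window alone among these 7 genes, 258 bases before the start codon, and in 1.7% of all windows. With the window extended to the base before the start codon, the shares were 7.15% and 2.28%, and INO4 joined INO1 in holding the URS1 core. A match in these letters is a description of the sequence and not a measured binding site.

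**Figure D1:**
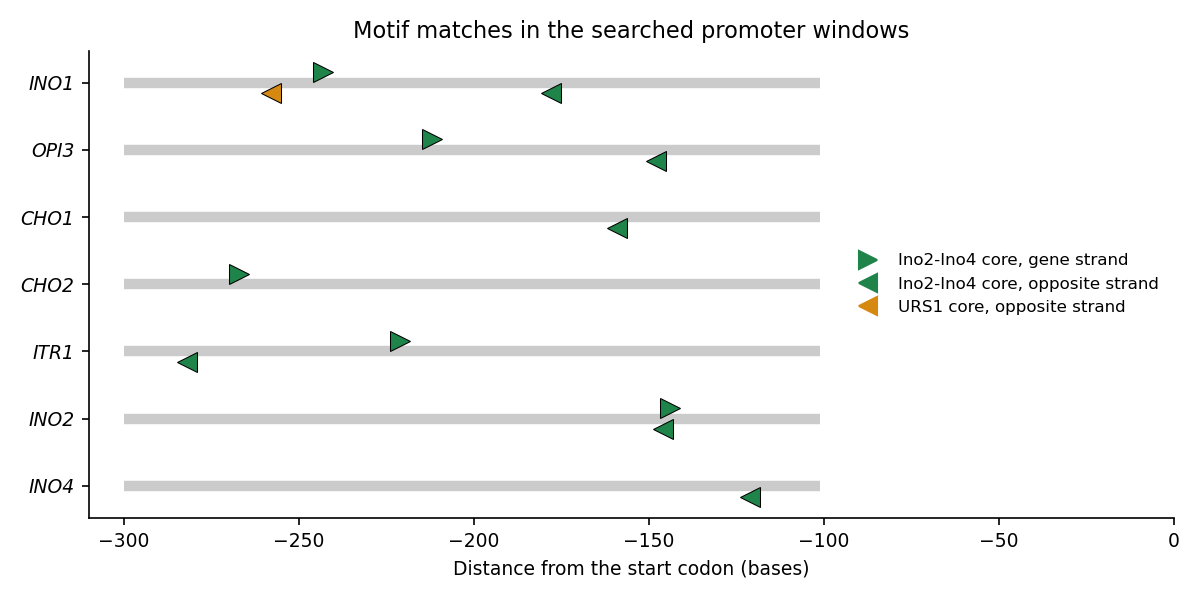
Motif matches in the window from 300 to 101 bases before the start codon (grey bars) of 7 genes, placed by distance from the start codon in bases. Triangles point in the direction of the match; the Ino2-Ino4 core is in all 7 windows and the URS1 core in that of INO1.

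The deposited table gave between 11372819 and 15906466 expected counts per library. All 8 genes passed the filter on low counts, as did 5646 of the 5928 genes, and all 72 of their values were whole numbers (within 0.005). PCF11 was 7.64-fold higher in Pcf11-13 than in wild type (log2 fold change 2.93 ± 0.05 SE) and lower by a log2 fold change of −0.33 ± 0.05 in Pcf11-DNL. The PCF11 counts and the tags differ along with the allele and cannot be told apart from it. The Pcf11-DNL label names deltaN, and whether coding sequence missing from that allele lowers its count was not tested. TRP1 had log2 fold changes of −0.08 and 0.05, and LEU2 of −0.71 and 0.14, in Pcf11-13 and Pcf11-DNL. The 4 alpha-specific marker genes (MF(ALPHA)1, MF(ALPHA)2, STE3, SAG1) summed to between 1464 and 2357 CPM (counts relative to the size of the library) in every library, and the 6 a-specific genes to between 40.5 and 66.3, with MFA2 at no counts in any library and MFA1 at none in wild type and Pcf11-DNL. Both sums differed between groups: Pcf11-13 had the lowest alpha sums (1464 to 1511) and the highest a sums (60.9 to 66.3). Wild type had 2051 to 2357 and 40.5 to 42.1. Wild type replicate 1 stood apart from the other wild type libraries, with a chi-square per degree of freedom of 10.1 and 10.7 against them, where other replicate pairs lay between 2.5 and 4.7. It gave the highest of the 3 wild type levels for 7 of the 8 genes, INO4 being the exception, and for 44.0% of all genes tested. Values without it are given beside some of the results it moves, not all of them, and its part in them was not tested. Among the lipid pathway genes described below, for example, FAA4 in Pcf11-13 moved from −0.86 to −0.74 without it, and NTE1 from 0.44 to 0.49. Values that carry no such note can depend on it too.

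INO1 (chromosome X, 134332 to 135933, minus strand, R64) had the largest change of the 8 genes. Its level was 12.5, 9.04 and 9.50 CPM in wild type replicates 1 to 3, 40.5, 43.5 and 43.3 in Pcf11-13, and 14.9, 12.5 and 15.4 in Pcf11-DNL. Every Pcf11-13 library lay above every library of the other groups, while Pcf11-DNL replicate 2 lay level with wild type replicate 1. The means were 10.4 ± 1.88, 42.4 ± 1.71 and 14.3 ± 1.57 CPM (SD, n = 3), from 126 to 145, 538 to 670 and 178 to 218 counts per library. In bulk RNA of this kind, a change in all cells cannot be told apart from a change in some of them.

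INO1 rose 4.14-fold in Pcf11-13 (2.05 ± 0.10 SE in log2, edgeR adjusted p = 1.2e-10), a change above that of 99.5% of the genes tested. It was the only one of the 8 genes to change at least 2-fold, where 5.79% of all genes did and 5.17% did so upwards. In Pcf11-DNL INO1 rose 1.39-fold (0.48 ± 0.12, edgeR adjusted p = 0.0134), with a fold change above that of 96.8% of genes. Without wild type replicate 1 that value was 0.62 (edgeR adjusted p = 0.00094), and the call was lost without wild type replicate 2 or 3 or Pcf11-DNL replicate 1 or 3 (edgeR adjusted p from 0.0539 to 0.0580). Set against each other, Pcf11-DNL stood 2.97-fold below Pcf11-13 (−1.57 ± 0.10, edgeR adjusted p = 2.6e-09). Changes of at least 2-fold between the alleles were found for 3.65% of all genes, and for 2.94% in that direction.

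**Figure D2:**
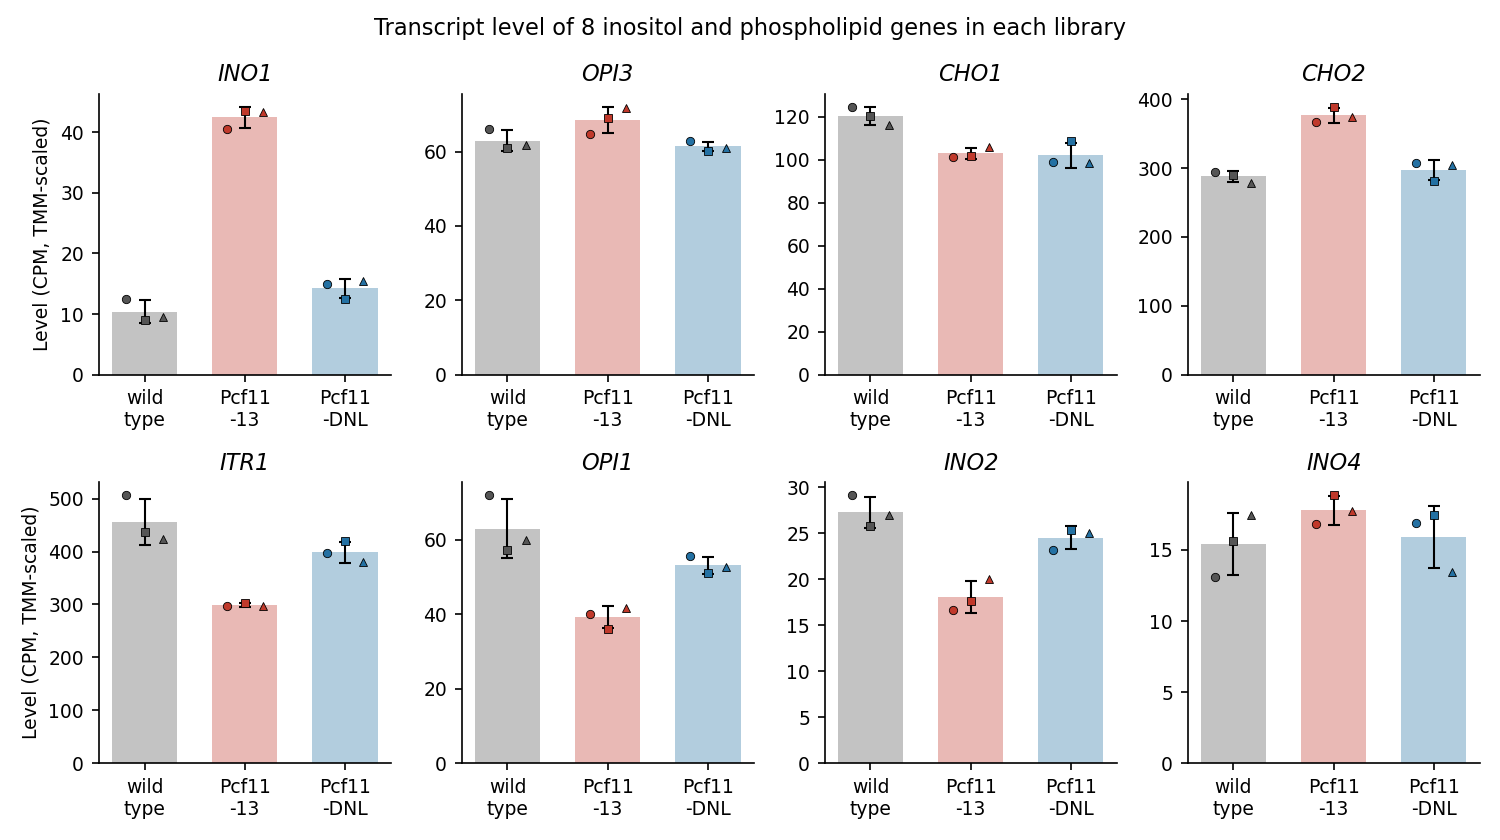
Level of each of the 8 genes in CPM (TMM-scaled, linear axes from 0) in the 3 groups. Bars are means of 3 libraries, error bars the SD, and circles, squares and triangles replicates 1, 2 and 3; the INO1 libraries of Pcf11-13 lie between 40.5 and 43.5 CPM, and all others between 9.04 and 15.4.

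The enzymes of the route from phosphatidylserine to phosphatidylcholine did not move together. CHO2 (chromosome VII, 802440 to 805049, plus strand), whose product carries out the opening methylation step, stood at 295, 290.4 and 279 CPM in wild type, 367, 389 and 374 in Pcf11-13, and 307, 281 and 304 in Pcf11-DNL. Libraries of Pcf11-13 lay above all others, and those of Pcf11-DNL overlapped wild type. CHO2 rose 1.31-fold in Pcf11-13 (0.39 ± 0.05 SE in log2, edgeR adjusted p = 2.0e-06) and did not pass the test in Pcf11-DNL (0.05 ± 0.05, edgeR adjusted p = 0.539). The difference between the alleles was −0.34 ± 0.05 (edgeR adjusted p = 1.06e-05).

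OPI3 (YJR073C, chromosome X, 572315 to 572935, minus strand), whose product carries out the later methylation steps, was at 66.1, 61.0 and 61.7 CPM in wild type, 64.7, 68.9 and 71.8 in Pcf11-13, and 62.8, 60.3 and 61.0 in Pcf11-DNL. Wild type overlapped both mutants. Its log2 fold change in Pcf11-13 was 0.12 ± 0.05 (edgeR adjusted p = 0.0470), which passed the test but did so in only 5 of 18 alternative settings. The OPI3 value in Pcf11-DNL was −0.03 ± 0.05 (edgeR adjusted p = 0.712), and between the alleles it was −0.16 ± 0.05 (edgeR adjusted p = 0.0158), a call that held in 13 of 17 alternative settings.

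CHO1 (YER026C, chromosome V, 207644 to 208474, minus strand), which supplies the phosphatidylserine at the head of this route, was lower in both mutants. It stood at 125, 120.2 and 116 CPM in wild type, 101, 102 and 106 in Pcf11-13, and 99.2, 109 and 98.3 in Pcf11-DNL. All 6 mutant libraries lay below the 3 wild type libraries, and the mutants overlapped each other. CHO1 fell in Pcf11-13 (log2 fold change −0.22 ± 0.05, edgeR adjusted p = 0.00074). The Pcf11-DNL value was −0.24 ± 0.05 (edgeR adjusted p = 0.0039). Between the alleles it was −0.01 ± 0.05 (edgeR adjusted p = 0.843). The fall in Pcf11-13 passed in 17 of 18 alternative settings but depends on the scaling. With library totals it was −0.01 (edgeR adjusted p = 0.842), where the median of all genes moved from 0.03 to 0.25.

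ITR1 (chromosome IV, 1443713 to 1445467, minus strand), the inositol transporter, went the opposite way to INO1. Its level was 506, 437 and 425 CPM in wild type, 298, 302 and 297 in Pcf11-13, and 397, 419.6 and 380.0 in Pcf11-DNL. No library of 1 group overlapped another group, with wild type highest and Pcf11-13 lowest. ITR1 fell 1.52-fold in Pcf11-13 (−0.61 ± 0.06 SE in log2, edgeR adjusted p = 2.1e-07), at the 3.83 percentile of all genes. In Pcf11-DNL it was −0.19 ± 0.06 (edgeR adjusted p = 0.0432), which became −0.11 (edgeR adjusted p = 0.101) without wild type replicate 1 and passed in 9 of 17 alternative settings. Pcf11-DNL stood above Pcf11-13 by 0.42 ± 0.06 (edgeR adjusted p = 1.7e-05).

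Of the 3 regulators, OPI1 and INO2 fell in Pcf11-13 and INO4 did not pass the test. The repressor gene OPI1 (YHL020C, chromosome VIII, 66242 to 67456, minus strand) was at 71.9, 57.2 and 59.9 CPM in wild type, 40.1, 36.0 and 41.8 in Pcf11-13, and 55.7, 51.1 and 52.7 in Pcf11-DNL. Its 3 groups did not overlap, and wild type replicate 1 was the highest library. OPI1 fell 1.60-fold in Pcf11-13 (−0.68 ± 0.08 SE in log2, edgeR adjusted p = 1.9e-06), or by 0.58 without wild type replicate 1. In Pcf11-DNL its value was −0.24 ± 0.08 (edgeR adjusted p = 0.0549), just short of the threshold, and −0.14 (edgeR adjusted p = 0.190) without that replicate. The Pcf11-DNL value passed in 5 of 17 alternative settings. The difference of Pcf11-DNL from Pcf11-13 was 0.44 ± 0.08 (edgeR adjusted p = 0.00023).

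INO2 (chromosome IV, 698554 to 699468, minus strand), the activator subunit whose own promoter holds the overlapping motif matches shown above, was at 29.1, 25.8 and 27.0 CPM in wild type, 16.6, 17.7 and 20.0 in Pcf11-13, and 23.1, 25.4 and 25.1 in Pcf11-DNL. Libraries of Pcf11-13 were the lowest 3, and the Pcf11-DNL libraries lay just under those of wild type. INO2 fell 1.51-fold in Pcf11-13 (−0.59 ± 0.08, edgeR adjusted p = 1.1e-05). It did not pass the test in Pcf11-DNL (−0.15 ± 0.08, edgeR adjusted p = 0.223), and differed between the alleles by 0.44 ± 0.08 (edgeR adjusted p = 0.00029).

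INO4 (YOL108C, chromosome XV, 111431 to 111886, minus strand), the partner of INO2, was at 13.1, 15.6 and 17.4 CPM in wild type, 16.8, 18.8 and 17.7 in Pcf11-13, and 16.9, 17.5 and 13.4 in Pcf11-DNL. Libraries overlapped in all 3 comparisons. INO4 had a log2 fold change of 0.20 ± 0.12 in Pcf11-13 (edgeR adjusted p = 0.140). The Pcf11-DNL value was 0.04 ± 0.12 (edgeR adjusted p = 0.848). The lowest wild type library held 148 counts of INO4. Without wild type replicate 3, or with library totals, INO4 passed the test in Pcf11-13 (0.30, edgeR adjusted p = 0.0455, and 0.41, edgeR adjusted p = 0.00775).

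**Figure D3:**
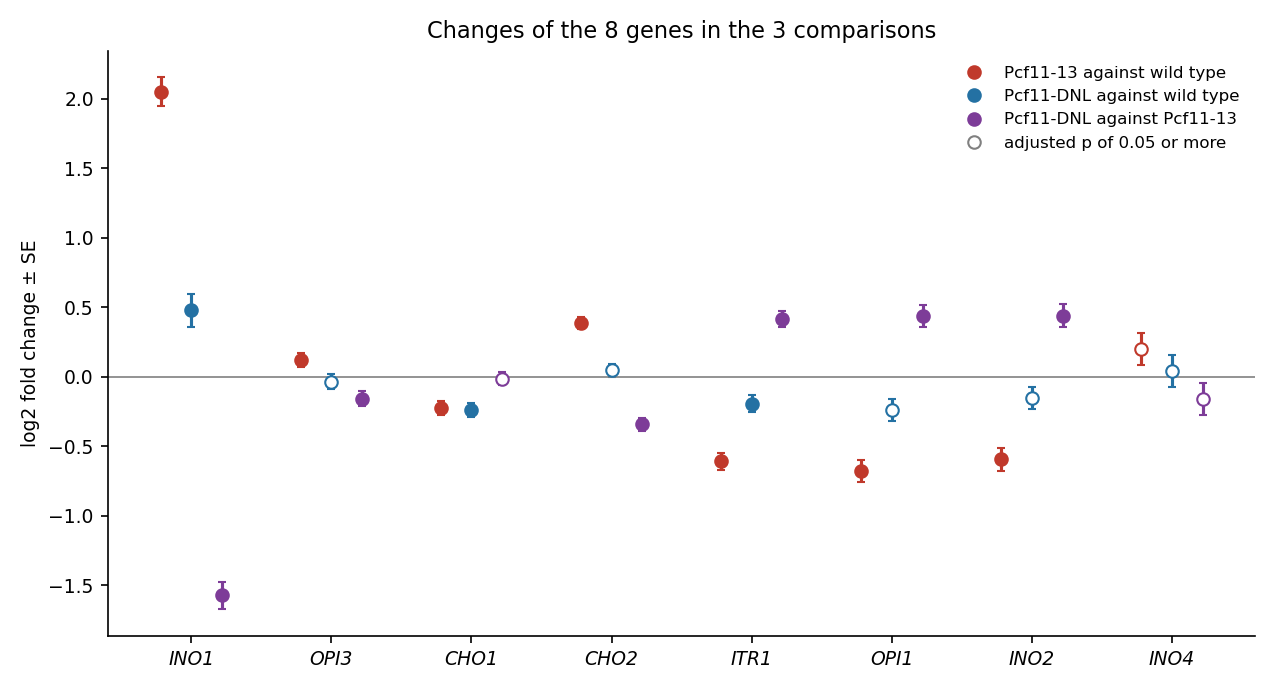
Log2 fold change of each gene with its standard error in the 3 comparisons; filled points passed the edgeR test (adjusted p under 0.05) and open points did not. INO1 stands at 2.05 in Pcf11-13 and 0.48 in Pcf11-DNL, and ITR1, OPI1 and INO2 lie between −0.68 and −0.59 in Pcf11-13.

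Counted together, 3 of the 8 genes rose (INO1, OPI3, CHO2) and 4 fell (CHO1, ITR1, OPI1, INO2) in Pcf11-13, where 66.1% of all genes tested were called, 35.2% higher and 30.9% lower. With only 8 genes, these 7 calls and the counts that follow are a description and no result about the genes as a group. In Pcf11-DNL, 1 rose (INO1) and 2 fell (CHO1, ITR1), where 13% of all genes were called, 8.73% higher and 4.3% lower. Between the alleles, 3 genes were higher in Pcf11-DNL (ITR1, OPI1, INO2) and 3 lower (INO1, OPI3, CHO2), against 60.3% of all genes called, 29.5% higher and 30.9% lower. Without wild type replicate 1, 3 rose and 4 fell in Pcf11-13, 1 rose and 1 fell in Pcf11-DNL, and 3 were higher and 3 lower between the alleles. The median log2 fold change of the 8 genes was −0.05, −0.09 and −0.08 in the 3 comparisons, and that of all genes was 0.03, 0.00 and −0.02. The libraries of Pcf11-13 and wild type did not overlap for 6 of the 8 genes and for 69.7% of all genes. For Pcf11-DNL and wild type the counts were 4 of 8 and 32.8%, and between the alleles 6 of 8 and 67%. The comparisons with wild type share its 3 libraries.

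The order of the genes by level, per kilobase of coding length, differed between groups. In wild type it ran from ITR1 (259.8 ± 25.0 CPM per kilobase, SD, n = 3) through CHO1 (145), CHO2 (110.4), OPI3 (101), OPI1 (51.9), INO4 (33.8) and INO2 (29.8) to INO1 (6.46 ± 1.17). INO4 and INO2 were the neighbours in that order whose libraries overlapped. In Pcf11-13 INO1, at 26.5 ± 1.07 CPM per kilobase, stood above INO2 at 19.8 ± 1.88, CHO2 (144) above CHO1 (124), and INO4 (39.0) above OPI1 (32.4). No neighbours in the Pcf11-13 order overlapped. Pcf11-DNL kept the wild type order, with INO1 lowest at 8.92 ± 0.98 CPM per kilobase, and without overlap of neighbours.

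Genes of the surrounding lipid pathways were described as lists. Of 63 such genes, 21 rose and 31 fell in Pcf11-13 (median log2 fold change −0.11). In Pcf11-DNL 6 rose and 5 fell (median −0.04). Of all genes tested, 35.2% rose and 30.9% fell in Pcf11-13, and 8.73% rose and 4.3% fell in Pcf11-DNL, and the count of each list is a description beside these shares. Without wild type replicate 1 the counts over the 63 genes were 19 and 28, and 6 and 3. With library totals the Pcf11-13 split turned to 31 higher and 16 lower and the list median to 0.10, while over all genes 1988 higher and 1744 lower became 3372 and 861. The direction over the 63 genes thus depends on the scaling.

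In the branch of CHO1, which starts from CDP-diacylglycerol, 2 of 5 genes fell in Pcf11-13 and none rose. They were CDS1, the CDP-diacylglycerol synthase (log2 fold change −0.31 ± 0.05, edgeR adjusted p = 0.00012), and PSD1, the mitochondrial phosphatidylserine decarboxylase (−0.36 ± 0.07, edgeR adjusted p = 0.00029). Both also passed the test in Pcf11-DNL, at −0.18 and −0.23 (edgeR adjusted p = 0.0442 and 0.0439), and neither did so without wild type replicate 1. Both of these calls were also lost without Pcf11-DNL replicate 1, 2 or 3, without Pcf11-13 replicate 1 or 3, and with just the groups compared. PIS1, the phosphatidylinositol synthase that uses inositol, had values of −0.00 and 0.06 and was not called in either (it was added to the named genes after its values were seen). With library totals, 3 of these 5 were called higher and 1 lower in Pcf11-13, and neither CDS1 nor PSD1 passed the test in Pcf11-DNL.

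The Kennedy pathway builds phosphatidylcholine and phosphatidylethanolamine from choline and ethanolamine. Of its 7 genes, 2 rose and 3 fell in Pcf11-13. PCT1, the enzyme that makes CDP-choline, rose in both mutants, by 0.40 ± 0.04 and 0.29 ± 0.04 (edgeR adjusted p = 7.7e-07 and 0.0004). ECT1, its ethanolamine counterpart, and HNM1, the choline transporter, fell in Pcf11-13, by 0.26 and 0.38 (edgeR adjusted p = 0.00015 and 0.00017). With library totals 4 of the 7 were higher and 1 lower, and the ECT1 call was lost at −0.04.

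Among 12 genes that supply or use phosphatidic acid, the lipid that holds Opi1 outside the nucleus, 6 rose and 3 fell in Pcf11-13 and 1 rose in Pcf11-DNL. DPP1, a phosphatase that removes phosphate from lipids such as phosphatidic acid, rose by 0.65 ± 0.05 in Pcf11-13 (edgeR adjusted p = 1.16e-08), and its Pcf11-DNL value was −0.10. The acyltransferases GPT2, which makes lysophosphatidic acid, and SLC1, which turns it into phosphatidic acid, rose by 0.59 ± 0.07 and 0.49 ± 0.05 in Pcf11-13 (edgeR adjusted p = 1.0e-06 and 8.7e-07). SLC1 also passed the test in Pcf11-DNL at 0.18 (edgeR adjusted p = 0.0456), but not without wild type replicate 1 (0.18, edgeR adjusted p = 0.0619). That call was also lost with DESeq2 (its size factors or its Wald test). It was lost too without wild type replicate 2, Pcf11-13 replicate 3, or Pcf11-DNL replicate 1 or 2. Without wild type replicate 1, 6 of the 12 genes rose and 2 fell in Pcf11-13. Library totals gave 9 higher and 0 lower in Pcf11-13.

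All 5 genes listed under inositol supply outside the 8 passed the test in Pcf11-13, 4 higher and 1 lower, where 66.1% of all genes were called. The split was the same under TMM, DESeq2 size factors and library totals. Without wild type replicate 1, 3 were higher and 1 lower. GDE1, counted in this list although its product breaks down glycerophosphocholine, rose by 0.57 ± 0.04 (edgeR adjusted p = 1.5e-08). INM1, an inositol monophosphatase that acts on the product of Ino1, rose in both mutants, by 0.26 ± 0.06 and 0.34 ± 0.06 (edgeR adjusted p = 0.0015 and 0.0016). GIT1, a transporter of glycerophosphoinositol, fell in both, by 0.46 ± 0.08 and 0.34 ± 0.08 (edgeR adjusted p = 0.00012 and 0.0104).

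None of 8 known regulators of the INO1 promoter rose in Pcf11-13, and 5 fell, with a list median of −0.20, where 35.2% of all genes rose and 30.9% fell. The falls numbered 4 without wild type replicate 1. UME6, the URS1-binding repressor, fell by 0.45 ± 0.06, RPD3, the histone deacetylase, by 0.30 ± 0.04, and SCS2, the membrane anchor of Opi1, by 0.27 ± 0.04 (edgeR adjusted p = 7.0e-06, 1.89e-05 and 2.3e-05). In Pcf11-DNL 0 of the 8 passed the edgeR, DESeq2 or limma test, and 2 had an unadjusted edgeR p under 0.05. There UME6 was at −0.17 (edgeR adjusted p = 0.0651), and it passed the test without wild type replicate 3 at −0.21 (edgeR adjusted p = 0.0448) and with replicate number as a block (edgeR adjusted p = 0.0426). Leaving out wild type replicate 1 gave 1 of the 8 as higher in Pcf11-DNL. With library totals 2 were higher and 1 lower in Pcf11-13, the list median was 0.02, and UME6 was at −0.24, still past the threshold (edgeR adjusted p = 0.0012).

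Of 10 genes of fatty acid synthesis and activation, 9 fell and 1 rose in Pcf11-13, with a median of −0.37, where 30.9% of all genes fell and the median of all genes was 0.03. FAA4, a fatty acyl-CoA synthetase, fell by 0.86 ± 0.08, OLE1, the fatty acid desaturase, by 0.78 ± 0.07, and FAS1, a subunit of fatty acid synthase, by 0.63 ± 0.07 (edgeR adjusted p = 9.8e-08, 5.4e-08 and 1.26e-06). All 4 genes of S-adenosylmethionine supply, the methyl donor of Cho2 and Opi3, also fell, SAM2 by 0.66 ± 0.05, SAM1 by 0.36 ± 0.04 and ADO1, which clears adenosine, by 0.29 ± 0.04 (edgeR adjusted p = 1.0e-08, 2.7e-06 and 7.0e-06). Library totals left 6 lower and 1 higher of the 10 and 3 lower of the 4. In Pcf11-DNL 0 of the 10 fatty acid genes passed the edgeR, DESeq2 or limma test, with 3 at an unadjusted edgeR p under 0.05. Without wild type replicate 3, 2 of them were lower, OLE1 at −0.22 (edgeR adjusted p = 0.0328), and with replicate number as a block 1 was lower. Of the 4 S-adenosylmethionine genes, SAM2 passed the edgeR test in Pcf11-DNL, at −0.25 ± 0.05 (edgeR adjusted p = 0.0023). There 2 of the 4 were lower with DESeq2 (its size factors or its Wald test), with the block, and without wild type replicate 2 or 3.

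The 5 genes of cardiolipin synthesis, the signature lipid of mitochondria, all passed the test in Pcf11-13, 4 higher and 1 lower, where 66.1% of all genes were called, and 3 were higher and 1 lower without wild type replicate 1. PGS1, which commits CDP-diacylglycerol to this route, rose by 0.76 ± 0.07, and GEP4, the phosphatase of the next step, fell by 1.12 ± 0.09 (edgeR adjusted p = 5.2e-08 and 3.0e-08). CLD1, a cardiolipin-specific phospholipase, rose by 0.48 ± 0.10 (edgeR adjusted p = 0.00036). Of 7 phospholipid turnover genes, 4 rose and 3 fell in Pcf11-13 (2 fell without wild type replicate 1), and 3 rose in Pcf11-DNL. NTE1, a phospholipase B, rose by 0.44 ± 0.05 and PLC1, the phosphoinositide-specific phospholipase C, fell by 0.38 ± 0.06 in Pcf11-13 (edgeR adjusted p = 1.6e-06 and 1.57e-05), while PLB1, a further phospholipase B, rose in both mutants, by 0.30 ± 0.04 and 0.25 ± 0.04 (edgeR adjusted p = 1.4e-05 and 0.0011).

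**Figure D4:**
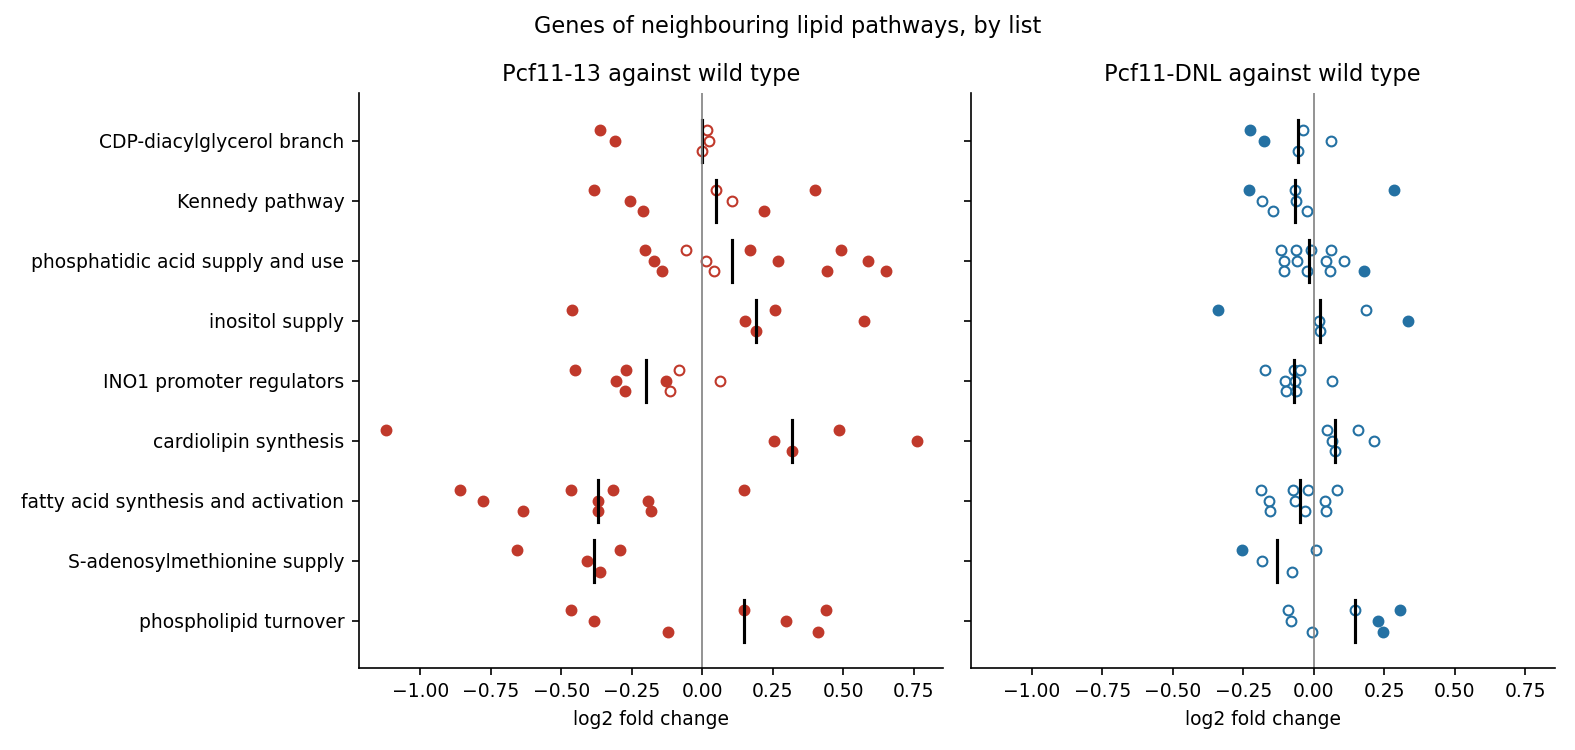
Log2 fold change of each gene of 9 lipid pathway lists in Pcf11-13 (left) and Pcf11-DNL (right) against wild type; filled points passed the edgeR test, open points did not, black lines are list medians, and points are spread vertically for legibility. In Pcf11-13 the fatty acid list has a median of −0.37 and the cardiolipin list one of 0.32, with GEP4 at −1.12.

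Genes with the Ino2-Ino4 core in the promoter window, the 7 described above included, did not show a shared direction. Of 310 tested genes with the Ino2-Ino4 core in the window, 109 rose (35.2%) and 95 fell (30.6%) in Pcf11-13, next to 35.2% and 30.9% of all genes, with a median log2 fold change of 0.04. In Pcf11-DNL 21 rose (6.77%) and 20 fell (6.45%), next to 8.73% and 4.3% of all genes. Among the 63 pathway genes, the 12 with the core had 2 higher and 7 lower in Pcf11-13 (median −0.30), and the 51 without it had 19 and 24 (median −0.08). Of 95 tested genes with the URS1 core, 44 rose (46.3%) and 22 fell (23.2%) in Pcf11-13, with a median of 0.16, and 10 rose and 3 fell in Pcf11-DNL. These counts are given as a description without a test, and INO1 is among the genes of both motif lists.

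The protein-coding genes next to the 8 on the chromosome were counted because Pcf11 acts at transcript ends. Of 16 neighbours, 7 rose and 7 fell in Pcf11-13, where 35.2% of all genes tested rose and 30.9% fell. In Pcf11-DNL 3 rose and 1 fell, where 8.73% and 4.3% of all genes did. Between the alleles 7 were higher and 4 lower in Pcf11-DNL, against 29.5% and 30.9% of all genes. None was called with a change of 2-fold or more in any of the 3 comparisons. Over all genes such calls made up 5.79% in Pcf11-13 and 3.65% between the alleles. With 16 neighbours, a count of none is no result about them. SNA3, which ends 438 bases upstream of INO1 on the same strand and is named here because of its value, rose in both mutants, by 0.52 ± 0.06 and 0.45 ± 0.06 (edgeR adjusted p = 1.1e-06 and 0.00011). Its change between the alleles was −0.07 ± 0.06 (edgeR adjusted p = 0.274), where INO1 differed by −1.57. VPS35, 396 bases downstream of INO1, is named outside the 2-fold rule as its other neighbour. It had a value of −0.11 ± 0.05 in Pcf11-13 (edgeR adjusted p = 0.0625). None of the 8 genes overlaps another gene in the R64 annotation. Whether the counting used strand is not stated, so reads from the opposite strand cannot be told apart.

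The genes most like INO1 over the 9 libraries were found by the root mean square difference of centred log2 CPM among 5376 genes. They were YPR078C (0.17), FLX1 (0.17) and PUT4 (0.18). FLX1, a mitochondrial FAD transporter, had log2 fold changes of 2.12 in Pcf11-13 and 0.57 in Pcf11-DNL (edgeR adjusted p = 4.1e-13 and 7.0e-05). YPR078C was at 1.89 and 0.56 (edgeR adjusted p = 8.7e-11 and 0.0020), and PUT4, the proline permease, at 1.83 and 0.11 (edgeR adjusted p = 3.4e-11 and 0.501). By Pearson correlation, which ignores the size of the change, the 3 most like INO1 were SLD5 (0.995), PLN1 (0.993) and FAA2 (0.992), none of them among the first 3.

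For the other called genes the same measure gave smaller distances. CHO2 was closest to GAT1, STR2 and BMH2 (0.03 to 0.04), ITR1 to PHO86, TRM3 and TIF6 (0.04 to 0.05), and OPI1 to PWP2, ARB1 and SYO1 (0.06 to 0.07). INO2 was closest to LSM1, RPS28B and EHT1 (0.06), CHO1 to MMT2, APL1 and YPP1 (0.05), and OPI3 to BCY1, DCK1 and SET3 (0.03). None of the 8 genes was among the 3 closest to INO1 or to any of these 6; INO4, which was not called in any of the 3 comparisons, had no closest genes computed.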

How the data were processed

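RNA-seq of 9 yeast libraries, 3 per group, was analysed from 1 deposited table. The authors deposited expected counts per gene (estimated read counts, not normalized), which were rounded to whole numbers here; 10.8% of values were not whole. Per the submitters' processing notes, the build was sacCer3 and the tools included STAR 2.6.1b, RSEM 1.3, Trimmomatic 0.38, DESeq2 1.26.0 and FastQC. No source used here gives their settings, the annotation or the strand. Per the labels, replicates are biological.

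Counts were filtered with filterByExpr (minimum count 10, 5646 of 5928 genes kept), scaled by TMM and tested in R 4.3.3 with edgeR 4.0.16 (1 quasi-likelihood fit to all 9 libraries, group term only, two-sided F test, Benjamini-Hochberg adjustment over all genes tested, threshold 0.05). The biological coefficient of variation over all genes came to 4.59%. Gene levels are in CPM relative to the TMM-scaled total, as mean ± SD, and fold changes carry their SE. The steps were tested on simulated data.

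The 8 genes, the pathway lists and the markers were chosen with earlier results of these data known. The genes named are the 8, PCF11, TRP1 and LEU2, up to 3 genes of each list with the smallest adjusted p against wild type among those called, neighbours changed by at least 2-fold, and the 3 genes most like each called gene (mean of at least 5 CPM). Genes named outside this rule are said to be so. Names and positions come from the R64 annotation, which matched 5919 of 5928 identifiers; sacCer3 is the same assembly. Promoter windows come from its genome sequence (RefSeq); that of 1 of the 8 genes is not reported here.

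Scaling was varied to DESeq2 size factors and library totals, the filter to none and to a mean of at least 5 CPM, and the test to limma-voom (limma 3.58.1) and the Wald test of DESeq2 1.42.0. Further fits used just the 2 groups compared, a block for replicate number, or 8 libraries with each left out in turn; the block within Pcf11-13 and wild type and the longer promoter window were added after the data were seen.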

Additional observations from a re-analysis of the deposited data

How the results depend on the processing

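No direction of a called change among the 8 genes turned under any alternative. Of the 8 genes' results, 128 of 144 alternative values kept their call in Pcf11-13 against wild type (14 lost it, 2 gained it), 119 of 136 in Pcf11-DNL against wild type (12 lost, 5 gained) and 130 of 136 between the alleles (4 lost, 2 gained). INO1, CHO2, ITR1, OPI1 and INO2 in Pcf11-13 passed in all 18, with INO1 between 1.97 and 2.26. The sizes of the other changes moved more for their size. CHO2 lay between 0.36 and 0.60, and ITR1 between −0.66 and −0.39. OPI1 lay between −0.74 and −0.46, and INO2 between −0.67 and −0.38. Leaving out 1 library gave 3419 to 3743 genes called in Pcf11-13, 488 to 698 in Pcf11-DNL (736 with all libraries; 488 without Pcf11-DNL replicate 3) and 2984 to 3593 between the alleles. Of the 8 genes it left 6 to 7, 1 to 3 (1 without Pcf11-DNL replicate 1 or 3) and 5 to 6 called, and of the 63 pathway genes 47 to 52, 7 to 16 (7 without Pcf11-DNL replicate 1 or 2; 16 without wild type replicate 3) and 35 to 48. The other settings gave 6 to 7, 2 to 4 and 5 to 8 of the 8 genes. Under library totals TRP1 turned to 0.14 in Pcf11-13 (edgeR adjusted p = 0.0210) and to −0.035 between the alleles, and CDS1 to −0.029 between the alleles. The median of all genes moved in the same directions, from 0.03 to 0.25 in Pcf11-13 and from −0.02 to −0.18 between the alleles. The cause was not tested. Same-numbered libraries of wild type and Pcf11-13 had residual correlations of 0.32, 0.21 and 0.08, each the best match of its library, a hint from the data and not from the design, so the numbers were not taken as a pairing; those of wild type and Pcf11-DNL had 0.00, 0.14 and 0.03. With replicate number as a block, 3804, 847 and 3466 genes and 6, 4 and 6 of the 8 genes were called. There OPI3 in Pcf11-13 was at an edgeR adjusted p of 0.0537 and OPI1 in Pcf11-DNL at 0.0162; the block within Pcf11-13 and wild type, chosen after seeing the data, called 3847 genes and 6 of the 8. Counts of 126 to 218 limit the precision of INO1 in wild type and Pcf11-DNL.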
